A study of Mus musculus with 6 samples.

Results

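Collagens and the enzymes that modify them were followed in neural stem cells with and without Pml. The genes were taken by name from the deposited count table: every symbol of a collagen alpha chain, the 5 lysyl oxidases (Lox and Loxl1 to Loxl4), the 3 catalytic prolyl 4-hydroxylase chains (P4ha1 to P4ha3) and the 3 lysyl hydroxylases (Plod1 to Plod3). That gave 55 genes of 24421 rows, of which 44 encode collagen chains and 11 encode enzymes. The rule uses names alone and no measured value. The cells were primary mouse neural stem cells of embryonic stage E13.5, grown as neurospheres with 20 ng/ml epidermal growth factor and 20 ng/ml fibroblast growth factor 2 at 20% oxygen, and collected 4 days after dissociation. The series holds 3 WT and 3 Pml knockout (Pml-/-) libraries, all made from polyadenylated RNA with a 3′ tag kit. The labels name neither the Pml allele nor the embryos or cultures behind the replicates, so p-values here measure the spread between these 6 libraries, which may be technical. In bulk RNA, fewer cells of a type and less RNA per cell cannot be told apart.

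Collagens are secreted proteins whose alpha chains wind around each other into a stiff helix. Fibrillar collagens bear load in connective tissue, type IV collagen forms the sheet of basement membranes, and FACIT collagens sit on the surface of fibrils. Prolyl 4-hydroxylases stabilise the helix in the endoplasmic reticulum. Lysyl hydroxylases prepare lysines for sugar addition and cross-linking, and lysyl oxidases start the cross-links outside the cell. In the embryonic brain, the meninges and vessels are known as rich sources of collagen, and neural progenitors contact the basement membrane beneath the pia.

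Total counts ran from 1775152 (WT replicate 2) to 5917505 per library. The 45S pre-ribosomal RNA row took 41.9%, 39.8% and 19.6% of counts in WT replicates 1, 2 and 3 and 14.6% to 17.6% in knockout libraries. WT replicates 1 and 2 also stood apart from the knockout libraries over all tested genes, and replicate 1 less clearly from WT replicate 3. With that row left out, the chi-square per degree of freedom between the counts of a pair of libraries, which grows with depth, was 18.5 for WT replicates 1 and 2. It was 26.7 and 42.1 between each of them and WT replicate 3, and 17.1 to 28.7 between WT replicate 3 and the knockout libraries. Between WT replicate 1 and the knockout libraries it was 30.8 to 41.6, and for WT replicate 2 it was 41.7 to 46.0. Every difference below between WT and knockout rests on WT libraries that differ in this way. Pml itself had 36, 35 and 44 reads in WT against 14, 23 and 5 in knockout libraries, but the deleted part is not named in the labels, and tags outside it check nothing. All 9 neural stem cell markers had reads in every library, and their summed level lay between 5552 and 8166 CPM (counts scaled to library size with the trimmed mean of M values). Some of them, picked out here after their values were seen, had higher mean levels in the knockout. Fabp7, a radial glial fatty acid binding protein, was at 352, 73.5 and 708 CPM in WT against 689, 2132 and 1547 CPM in the knockout with overlap (log2 fold change 1.94, unadjusted p 0.0173, edgeR adjusted p 0.240). Nr2e1, a nuclear receptor of neural stem cells, was at 7.44, 6.39 and 12.3 CPM against 20.01, 25.1 and 21.8 CPM without overlap (1.31, unadjusted p 0.00498, edgeR adjusted p 0.212), and the genotypes did not overlap for Pax6 either, at 26.6 ± 12.7 and 43.8 ± 3.58 CPM. Others did not rise: the log2 fold change was -0.46 for Nes, -0.23 for Sox2 and -0.26 for Hes5, with overlap. Vim (0.046), Slc1a3 (0.024) and Sox1 (0.00028) barely moved, also with overlap. The part of these differences in the results below was not tested. The 12 hepatocyte markers summed to 405, 647 and 123 CPM in WT replicates 1, 2 and 3 and to 94.8, 62.7 and 76.2 in the knockout. WT replicate 3 again lay nearest the knockout, and the part of that list in the results below was not tested.

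Markers of the cells best known for collagen ran from 0 reads to levels like those of the tested members. Over all libraries Pdgfra averaged 42.0 CPM, Prrx1 37.7, Acta2 10.2, Foxc1 10.1 and Flt1 8.71. Among members, Loxl2 averaged 24.6 CPM and Col4a6 3.92. The part of such cells in the results below was not tested. Of 12 mesenchymal and meningeal markers, 6 (Foxc2, Foxd1, Tbx18, Lum, Ogn and Islr) had 0 reads in all libraries, and the list summed to 66.1 to 102 CPM in WT and 89.2 to 116 CPM in the knockout. Pdgfra, Prrx1 and Foxc1 gave nearly all of that sum. Of 9 endothelial markers, 4 (Cdh5, Tek, Cldn5 and Emcn) had 0 reads, and the list summed to 5.22 to 13.4 CPM in WT and 11.5 to 18.1 CPM in the knockout. Of 8 mural cell markers, 3 (Kcnj8, Anpep and Higd1b) had 0 reads, with sums of 5.45 to 23.2 CPM in WT and 7.09 to 25.8 CPM in the knockout. The 8 macrophage and microglial markers summed to 2.98, 33.6 and 0.908 CPM in WT and to 0.298 to 2.71 CPM in the knockout. Of the fibroblast collagen chains, Col1a1 had reads in all 6 libraries: 7, 4 and 2 in WT against 16, 6 and 9 in knockout libraries. These were 1.91 ± 1.38 and 1.58 ± 0.738 CPM. Col1a2 and Col3a1 were near absent. Col1a2 had 0, 0 and 2 reads in WT against 3, 0 and 1 in knockout libraries. Col3a1 had 10, 0 and 0 reads in WT and 0 in each knockout library.

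Among the collagen genes and enzymes, several enzymes and several nonfibrillar chains were at higher levels in the knockout libraries, and none passed the test over all genes. Of the 55 genes, 24 passed the count filter. Of these 24, 17 had a higher fitted level in the knockout and 7 a lower one, and their median log2 fold change was 0.78 (quartiles -0.28 and 1.21). Across the 11317 genes tested the median was -0.01, and 49.7% had a positive log2 fold change. By edgeR's quasi-likelihood test 0 members passed an adjusted p of 0.05, where 0.00884% of all genes did (1 gene). At an unadjusted p under 0.05, 10 members were higher and 0 lower, against 6.7% of all genes higher and 9.19% lower. The genotypes did not overlap for 10 members on the higher side and 1 on the lower side, against 12.3% and 11.3% of all genes. Col4a6 and Col9a1 reached the filter in knockout libraries alone and so had to differ. Counts over the members that passed are a description of the list.

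**Figure D1:**
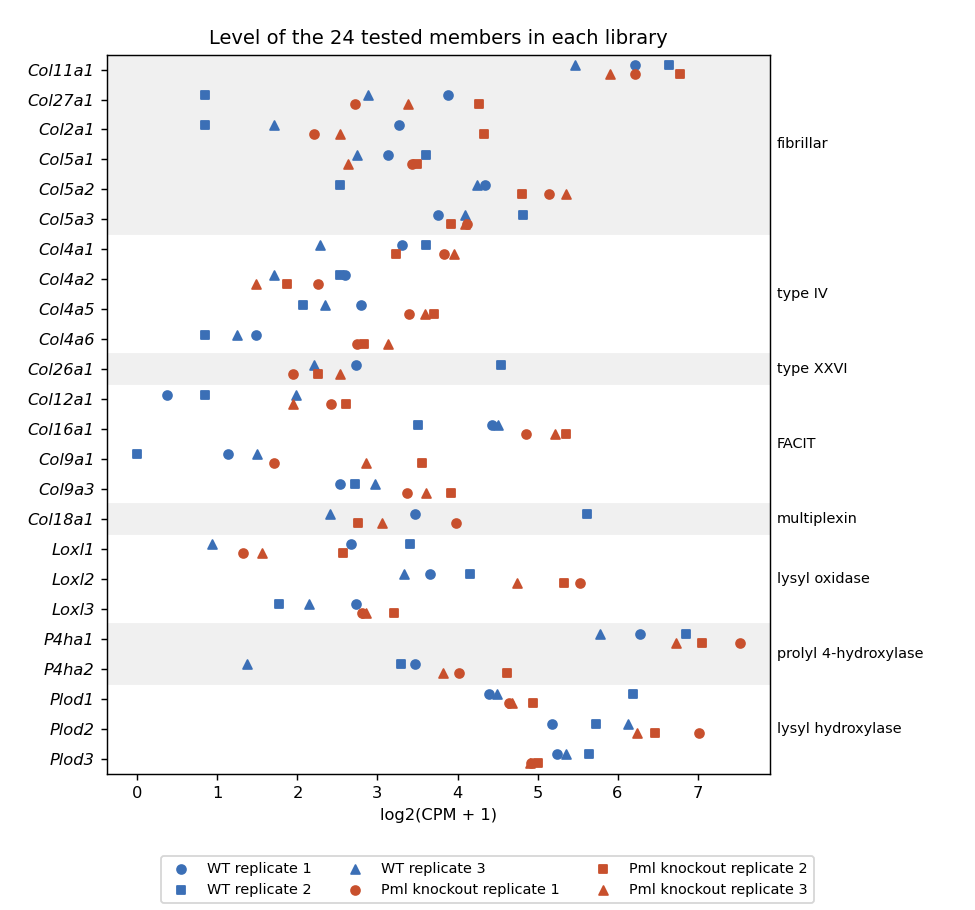
Level of each tested member in each library, as log2(CPM + 1) on the horizontal axis, with WT libraries in blue, Pml knockout libraries in orange, the marker shape giving the replicate, and the family at the right. The genotypes stand apart for 11 of the 24 genes, and WT replicate 2 lies far above the other WT libraries for Col18a1, Col26a1 and Plod1.

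The sum over all 55 genes was 415, 600 and 351 CPM in WT and 682, 682 and 532 CPM in the knockout, so that WT replicate 2 lay above knockout replicate 3. Each library's mean over the tested members, relative to each gene's average over the 6 libraries, was -0.16, -0.26 and -0.58 (log2) in WT and 0.25, 0.56 and 0.20 in the knockout. WT replicate 3 was the lowest library on this scale. Another count filter that does not use the groups, a mean of at least 5 CPM over all 6 libraries, kept 19 members, 14 of them higher, and their median log2 fold change was 0.79.

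The prolyl 4-hydroxylase chains carry the active site of the enzyme that makes 4-hydroxyproline. P4ha1, the widely used chain (chromosome 10, 59323296 to 59373304, plus strand, GRCm38), had 258, 144 and 238 reads in WT against 1223, 800 and 706 in knockout libraries. Scaled to library size these were 76.8, 115 and 54.0 CPM against 184, 132 and 105 CPM. WT replicate 2 lay above knockout replicate 3, so the groups overlapped. Its log2 fold change was 0.79 (SE 0.339), with an unadjusted p of 0.0418 and an edgeR adjusted p of 0.298. P4ha2 (chromosome 11, 54100095 to 54131665, plus strand) had 34, 11 and 7 reads in WT against 101, 143 and 88 in knockout libraries. These were 10.1, 8.79 and 1.59 CPM against 15.2, 23.6 and 13.1 CPM. The groups did not overlap, and WT replicate 3 was far below the other WT libraries. The log2 fold change was 1.40 (SE 0.600), with an unadjusted p of 0.0412 and an edgeR adjusted p of 0.296. Its size rested on which WT libraries were used: it was 0.86 when WT replicate 3 was left out, and came to 2.02 when the first was left out and to 3.42 when the first and second were. For P4ha1 the value with WT replicate 3 as the only WT library was 1.37.

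P4ha3, the third chain (chromosome 7, 100285520 to 100319699, plus strand), missed the count filter. It had 0, 1 and 1 reads in WT against 9, 46 and 20 in knockout libraries, with knockout replicate 2 the highest. Over each group that is 2 reads against 75, a ratio of 17.4 scaled to library size, with an exact 95% interval of 4.66 to 146 for counting error only. That interval leaves out the spread between libraries, and knockout replicate 2 gave 46 of the 75 reads. P4ha3 was singled out after its values were seen, so the ratio is a description only. In the authors' deposited table its log2 fold change was 3.93, with an adjusted p of 0.0223. A filter of 1 CPM in at least 3 libraries admits it through the knockout libraries alone, so there it had to differ. That filter keeps 12349 genes, as many as have an adjusted p in the authors' table. In that fit the edgeR quasi-likelihood adjusted p was 0.224, and nothing is drawn from it.

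The sequences just before the RefSeq start sites of P4ha1 and P4ha2 are shown because both genes had higher mean levels in the knockout and both are textbook targets of hypoxia-inducible factors, whose core element holds ACGTG. Plod1, a lysyl hydroxylase with a lower fitted level in the knockout, is set beside them. That lower level rested on WT replicate 2, and the log2 fold change was 0.34 without it. Plod1 lacks ACGTG, but Plod3, also at a lower fitted level, holds it. Whether these letters bear on the levels was not tested. Each stretch ends at the base before the RefSeq start site, is written 5′ to 3′ on the gene's strand (GRCm38.p6), and has ACGTG of either strand in capitals. P4ha1 is chr10:59323146-59323295, P4ha2 is chr11:54100774-54100923 and Plod1 is chr4:147936777-147936926. The RefSeq and GENCODE starts differ for P4ha2: the RefSeq start lies 829 bases downstream of the start of the GENCODE gene, so all 150 bases shown lie inside that gene, in an intron and in no GENCODE exon.
P4ha1: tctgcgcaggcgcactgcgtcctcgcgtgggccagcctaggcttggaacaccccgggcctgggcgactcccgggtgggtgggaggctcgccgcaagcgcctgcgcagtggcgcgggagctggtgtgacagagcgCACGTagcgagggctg
P4ha2: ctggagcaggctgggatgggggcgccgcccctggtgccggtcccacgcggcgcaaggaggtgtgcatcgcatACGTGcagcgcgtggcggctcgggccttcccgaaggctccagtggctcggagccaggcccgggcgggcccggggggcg
Plod1: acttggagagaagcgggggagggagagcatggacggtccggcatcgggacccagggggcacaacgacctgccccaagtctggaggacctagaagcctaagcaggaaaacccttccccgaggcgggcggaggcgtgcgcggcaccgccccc

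In P4ha1 the letters ACGTG lie on the opposite strand, with their leftmost base at position -16 from the start, and in P4ha2 on the gene's strand at -78. Over windows from 250 bases before to 50 after a start, ACGTG on either strand occurred in 19.6% of 32851 RefSeq promoters (6447). RefSeq windows were matched for 41 of the 55 genes, in 44 windows, of which 8 (18.2%) held it. Among the genes without a window were Loxl2, Plod2, Col5a2 and Col9a3, all at higher levels in the knockout, so that share does not cover them. Plod3, with no higher level in the knockout, held it too, at -54. The related GCGTG occurred in 32.4% of all windows and 34.1% of the windows of the collagen genes and enzymes. ACGTG is also the core of the E-box CACGTG, and a match is a description of the letters only. The other 5 genes with it were Col11a2, Col1a2, Col4a4, Col5a1 and Col6a6, of which Col5a1 alone passed the count filter.

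Of the 3 lysyl hydroxylases, Plod2, which acts on the telopeptides that lysyl oxidases cross-link, was higher in the knockout, while Plod1 and Plod3, which act in the helical part, were not. Plod2 (chromosome 9, 92542223 to 92608428, plus strand) had 118, 65 and 303 reads in WT against 856, 532 and 503 in knockout libraries. These were 35.1, 52.0 and 68.8 CPM against 129, 87.7 and 75.03 CPM, and the groups did not overlap. WT replicate 3 and knockout replicate 3 were close neighbours across that gap. The log2 fold change was 0.90 (SE 0.332), with an unadjusted p of 0.0215 and an edgeR adjusted p of 0.245, and it was 0.49 without both WT replicates 1 and 2. Plod1 had 67, 90 and 95 reads in WT against 160, 181 and 166 in knockout libraries, or 19.9, 71.9 and 21.6 CPM against 24.1, 29.8 and 24.8 CPM. WT replicate 2 alone stood above the knockout, and the log2 fold change was -0.48 (SE 0.476, edgeR adjusted p 0.640), or 0.34 without that library. Plod3, which also adds sugars to hydroxylysine, had 124, 61 and 176 reads in WT against 195, 189 and 195 in knockout libraries. At 36.9, 48.8 and 39.95 CPM against 29.3, 31.2 and 29.1 CPM it was the only tested member whose knockout libraries all lay below WT. Its log2 fold change was -0.48 (SE 0.273), with an edgeR adjusted p of 0.407.

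Lysyl oxidases are copper enzymes that oxidise lysines of collagen and elastin. Loxl2 (chromosome 14, 69609068 to 69695834, plus strand), whose substrates include type IV collagen, had the smallest p of all the members. It had 39, 21 and 40 reads in WT against 300, 238 and 173 in knockout libraries. These were 11.6, 16.8 and 9.08 CPM against 45.1, 39.2 and 25.8 CPM, a mean of 12.5 ± 3.93 against 36.7 ± 9.91 CPM (SD, n = 3 each), and every knockout library lay above every WT library. The ratio of means was 2.94, and the log2 fold change was 1.60 (SE 0.367) with an unadjusted p of 0.00133. The edgeR adjusted p was 0.197, so it did not pass over all genes.

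Whether Loxl2 passed depended on the test and on which WT libraries were used. The adjusted p was 0.00935 by DESeq2 and 0.00987 by edgeR's exact test, and 0.00728 in the authors' deposited table. By the quasi-likelihood test it was 0.0367 without WT replicate 3, 0.0172 without both WT replicates 1 and 2, and 0.447 without WT replicate 1. Over all 18 alternatives its log2 fold change lay between 1.43 and 2.08 and its adjusted p between 0.00935 and 0.714. Loxl3 had 19, 3 and 15 reads in WT against 40, 50 and 42 in knockout libraries, with no overlap after scaling. Loxl1, known for elastic fibre assembly, had 18, 12 and 4 reads in WT against 10, 30 and 13 in knockout libraries, and the genotypes overlapped. Lox itself had 8, 0 and 0 reads in WT against 6, 2 and 2 in knockout libraries, and Loxl4 had 0 in all 6.

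**Figure D2:**
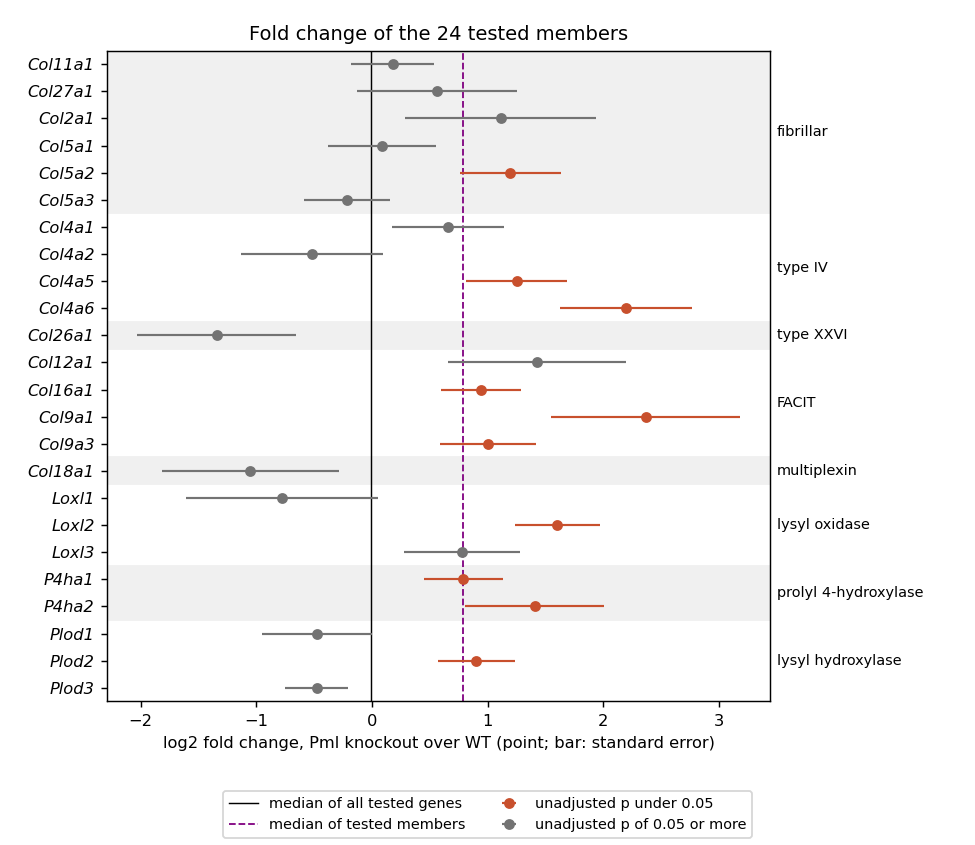
Fitted log2 fold change of Pml knockout over WT for each tested member (point) with its standard error (bar), orange where the unadjusted p was under 0.05, grouped by family. The dashed line marks the members' median of 0.78 and the solid line that of all tested genes at -0.01, and 10 genes, all to the right of 0, are orange.

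Type IV collagen has 6 chains, encoded as head-to-head gene pairs. Of the 4 chains tested, Col4a5 and Col4a6 were higher in the knockout in every library, while Col4a1 and Col4a2, the chains of the common basement membrane network, overlapped. Col4a6 (chromosome X, 141165403 to 141474076, minus strand) had 6, 1 and 6 reads in WT against 38, 37 and 52 in knockout libraries. These were 1.79, 0.799 and 1.36 CPM against 5.72, 6.10 and 7.76 CPM. The log2 fold change was 2.19 (SE 0.568), with an unadjusted p of 0.00301 and an edgeR adjusted p of 0.208. It was 0.0430 by DESeq2, 0.0117 by edgeR's exact test and 0.0230 in the authors' deposited table. Col4a6 reached the count filter in knockout libraries alone, so it had to differ. Col4a5 (chromosome X, 141475385 to 141689234, plus strand) had 20, 4 and 18 reads in WT against 63, 73 and 74 in knockout libraries, or 5.95, 3.20 and 4.09 CPM against 9.48, 12.0 and 11.04 CPM. Its log2 fold change was 1.25 (SE 0.435), with an unadjusted p of 0.0161 and an edgeR adjusted p of 0.240.

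The gene starts of Col4a5 and Col4a6 lie 1309 bases apart in GENCODE M21, those of Col4a1 and Col4a2 21 bases apart on chromosome 8, and those of Col4a3 and Col4a4 72 bases apart on chromosome 1. The stretches before the RefSeq starts of Col4a5 and Col4a6 are shown because these neighbours, read in opposite directions, were both at higher levels. They run 5′ to 3′ on each gene's own strand, at chrX:141475269-141475384 and chrX:141474077-141474226 (GRCm38.p6), without the 34 bases of Col4a5 that GENCODE places in an exon. Neither holds ACGTG or GCGTG, so no letter is in capitals.
Col4a5: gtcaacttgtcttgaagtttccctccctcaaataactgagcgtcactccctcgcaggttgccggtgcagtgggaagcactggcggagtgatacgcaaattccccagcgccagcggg
Col4a6: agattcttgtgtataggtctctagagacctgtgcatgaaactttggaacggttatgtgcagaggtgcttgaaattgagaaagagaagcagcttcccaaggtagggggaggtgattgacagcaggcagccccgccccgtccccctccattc

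Col4a1 had 30, 14 and 17 reads in WT against 88, 51 and 97 in knockout libraries, or 8.93, 11.2 and 3.86 CPM against 13.2, 8.41 and 14.5 CPM. Its log2 fold change was 0.66 (SE 0.483, edgeR adjusted p 0.517), or 0.30 without WT replicate 3 and 1.63 without both other WT libraries. Col4a2 had 17, 6 and 10 reads in WT against 25, 16 and 12 in knockout libraries. Scaled to library size these were 5.06, 4.80 and 2.27 CPM against 3.76, 2.64 and 1.79 CPM. Col4a3 had 0, 11 and 2 reads in WT against 0, 3 and 0 in knockout libraries, and Col4a4 had 2 reads in all. The Col4a1 and Col4a2 products assemble together. For both genes the genotypes overlapped, with a higher fitted level in the knockout for Col4a1 and a lower one for Col4a2.

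FACIT collagens do not form fibrils themselves but bind to them, and all 4 tested members had a positive log2 fold change. The filter bears on that count: Col9a1 reached it in knockout libraries alone and so had to differ, and Col12a1 reached it in 1 WT library. Of the FACIT chains that missed the filter, all with few reads, Col14a1, Col20a1, Col22a1 and Col9a2 had lower mean CPM in the knockout. The ratios of knockout to WT were 0.90, 0.39, 0.88 and 0.87, and Col19a1 was at 1.11. Col16a1 had 69, 13 and 96 reads in WT against 186, 243 and 243 in knockout libraries, or 20.5, 10.4 and 21.8 CPM against 28.0, 40.1 and 36.2 CPM. The groups did not overlap, and the log2 fold change was 0.94 (SE 0.348) with an unadjusted p of 0.0215 and an edgeR adjusted p of 0.245. Col9a1 and Col9a3 encode chains of type IX collagen, best known from cartilage. Col9a1 had 4, 0 and 8 reads in WT against 15, 65 and 42 in knockout libraries, or 1.19, 0 and 1.82 CPM against 2.26, 10.7 and 6.26 CPM. Its knockout libraries spread widely, and its log2 fold change was 2.37 (SE 0.816; unadjusted p 0.0157, edgeR adjusted p 0.239). It was 0.0483 by edgeR's exact test, 0.102 by DESeq2 and 0.0586 in the authors' deposited table. Col9a3 had 16, 7 and 30 reads in WT against 62, 86 and 75 in knockout libraries, without overlap after scaling, at a log2 fold change of 1.00 (SE 0.415, unadjusted p 0.0358, edgeR adjusted p 0.285). Col9a2, the remaining chain of that heterotrimer, missed the filter with 4, 0 and 5 reads in WT against 0, 6 and 7 in knockout libraries. Col12a1 had 1, 1 and 13 reads in WT against 29, 31 and 19 in knockout libraries, with overlap between WT replicate 3 and knockout replicate 3.

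Among fibrillar chains only Col5a2, a chain of the type V collagen that starts fibrils, had an unadjusted p under 0.05. It had 65, 6 and 79 reads in WT against 229, 163 and 269 in knockout libraries, or 19.3, 4.80 and 17.9 CPM against 34.5, 26.9 and 40.1 CPM. The groups did not overlap, and the log2 fold change was 1.197 (SE 0.436) with an unadjusted p of 0.0204 and an edgeR adjusted p of 0.242. The genotypes overlapped for its partners. Col5a1 had 26, 14 and 25 reads in WT against 65, 62 and 35 in knockout libraries, or 7.74, 11.2 and 5.67 CPM against 9.78, 10.2 and 5.22 CPM. Col5a3 had 42, 34 and 71 reads against 109, 86 and 108, or 12.5, 27.2 and 16.1 CPM against 16.4, 14.2 and 16.1 CPM. The fitted level of Col5a3 was lower in the knockout. Col11a1, a minor fibril chain with the highest tag level of the collagen genes, had 247, 124 and 191 reads in WT against 489, 663 and 395 in knockout libraries. At 73.5, 99.1 and 43.4 CPM against 73.6, 109 and 58.9 CPM the groups overlapped, with a log2 fold change of 0.18 (SE 0.359, edgeR adjusted p 0.827). Col2a1, the main cartilage chain, had 29, 1 and 10 reads in WT against 24, 116 and 32 in knockout libraries, and Col27a1 had 46, 1 and 28 against 37, 111 and 63. For both, knockout replicate 2 was the highest library and the groups overlapped. Col1a1 missed the filter with 7, 4 and 2 reads in WT against 16, 6 and 9 in knockout libraries.

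Outside the type IV and FACIT families, the lower levels of the tested nonfibrillar chains in the knockout rested mostly on WT replicate 2. Col18a1, a basement membrane collagen whose end fragment is endostatin, had 34, 60 and 19 reads in WT against 98, 35 and 49 in knockout libraries. These were 10.1, 48.0 and 4.31 CPM against 14.7, 5.77 and 7.31 CPM, and the groups overlapped. The log2 fold change was -1.05 (SE 0.767, edgeR adjusted p 0.514) with all libraries and 0.40 without WT replicate 2. Col26a1 had 19, 28 and 16 reads in WT against 19, 23 and 32 in knockout libraries, or 5.66, 22.4 and 3.63 CPM against 2.86, 3.79 and 4.77 CPM, at a log2 fold change of -1.34 (SE 0.688, edgeR adjusted p 0.367), or -0.26 without WT replicate 2.

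The remaining genes were at or near the floor. Of the 31 genes that missed the filter, 7 had 0 reads in all 6 libraries (Col10a1, Col8a2, Col6a4, Col6a6, Col13a1, Col17a1 and Loxl4), which allows a level of up to 0.447 to 2.40 CPM (3 reads) depending on the library. Another 4 had 1 to 3 reads in all (Col4a4, Col8a1, Col28a1 and Col6a5), and 20 had more, with P4ha3 the highest at 77. Type VI collagen, the beaded filament of connective tissue, was close to absent: Col6a1 had 0, 0 and 0 reads in WT against 3, 1 and 2 in knockout libraries, and Col6a2 had 0, 2 and 0 against 8, 4 and 0. Of the transmembrane collagens, Col23a1 had 0, 0 and 3 reads in WT against 8, 7 and 2 in knockout libraries, and Col25a1 had 0, 0 and 1 against 2, 4 and 4. Col7a1, the anchoring fibril collagen, had 0, 0 and 4 against 0, 6 and 4 reads. For the genes with 0 to 3 reads in all, a difference between genotypes was not detectable at this depth.

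Within the enzyme and type IV families the makeup also differed between libraries, on a measure that does not depend on how libraries are scaled. These shares were chosen after the values were seen, so they carry no test. Plod2 held 38.2% (exact 95% interval 32.7 to 43.9), 30.1% (24.1 to 36.7) and 52.8% (48.6 to 56.9) of the lysyl hydroxylase reads in WT replicates 1, 2 and 3. It held 70.7% (68.0 to 73.2), 59.0% (55.7 to 62.2) and 58.2% (54.8 to 61.5) in the knockout libraries. Each knockout share lay above each WT share, although the intervals of WT replicate 3 and knockout replicates 2 and 3 overlapped. Loxl2 held 46.4% (35.5 to 57.6), 58.3% (40.8 to 74.5) and 67.8% (54.4 to 79.4) of lysyl oxidase reads in WT and 84.3% (80.1 to 87.9), 74.4% (69.2 to 79.1) and 75.2% (69.1 to 80.7) in the knockout. Col4a5 and Col4a6 together held 35.6% (24.7 to 47.7), 13.9% (4.67 to 29.5) and 44.4% (30.9 to 58.6) of type IV reads in WT and 47.2% (40.4 to 54.1), 60.8% (53.3 to 67.9) and 53.6% (47.0 to 60.1) in the knockout. WT replicate 3 was the WT library nearest the knockout in all 3 families. The intervals cover counting error only. No molecular identifiers are named for these reads, so copies of 1 molecule may be counted as separate reads and the intervals may be too narrow.

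**Figure D3:**
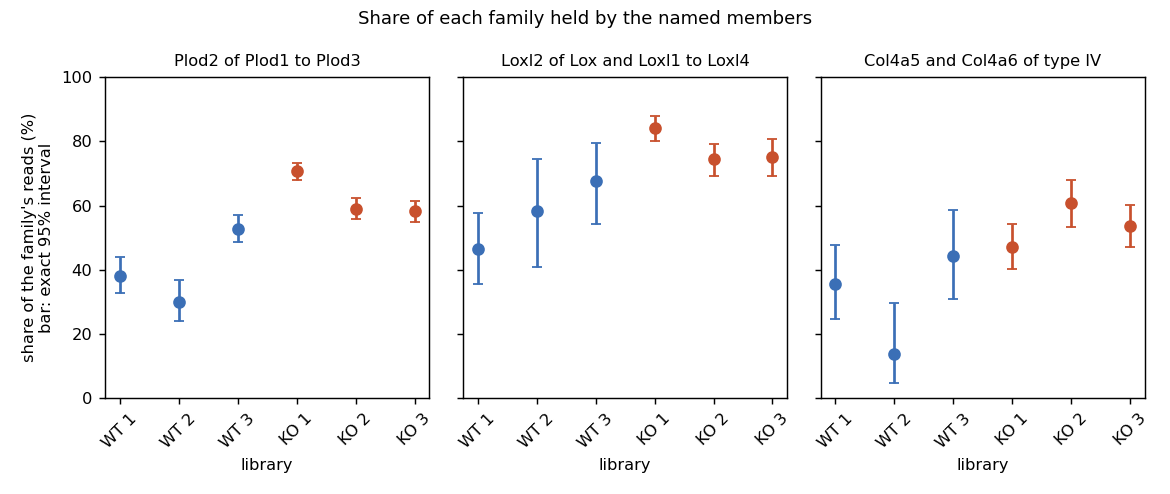
Share of a family's reads held by Plod2 (left), Loxl2 (middle) and Col4a5 with Col4a6 (right) in each library, in percent, with exact 95% binomial intervals; WT in blue and knockout in orange. All 3 knockout points lie above all 3 WT points in each panel, and WT 3 lies closest to them.

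Other genes of collagen assembly, from 5 lists of 51 genes, gave no gene past the threshold. Of the 35 tested, 0 passed by edgeR's quasi-likelihood test, by DESeq2, by edgeR's exact test or by limma voom, and 25 had a positive log2 fold change (median 0.20). At an unadjusted p under 0.05, 7 were higher and 2 lower, beside 6.7% and 9.19% of all genes. Without WT replicate 3, 5 passed, 3 of them higher (Sec23a, Mrc2 and Hspg2) and 2 lower (Colgalt1 and Furin). In that fit 5.01% of all genes were called higher and 7.97% lower, so the share of these lists lay near that of all genes. Of 12 tested folding and modification genes, 8 had a positive log2 fold change. Colgalt1, which adds galactose to hydroxylysine, had 115 ± 33.7 CPM in WT and 65.8 ± 7.58 CPM in the knockout (log2 fold change -0.79, SE 0.284). P3h3, a prolyl 3-hydroxylase family member, had 0.935 ± 0.651 and 3.34 ± 1.05 CPM (2.01, SE 0.768). Its reads were 1, 2 and 4 in WT against 16, 19 and 30 in knockout libraries. P3h3 reached the filter in knockout libraries alone and so had to differ, and its place among the 7 higher genes carries no weight.

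Of 7 tested genes of procollagen export, 5 had a positive log2 fold change. Sec23a, a coat protein of the vesicles that leave the endoplasmic reticulum, had 161, 24 and 263 reads in WT against 530, 509 and 611 in knockout libraries, or 42.3 ± 20.8 and 84.9 ± 5.765 CPM (log2 fold change 0.98, SE 0.370). Mia3, which loads procollagen into those vesicles, had 120 ± 27.2 and 169 ± 7.40 CPM (0.48, SE 0.259). Of 4 tested propeptide processing genes 1 had a positive log2 fold change. Furin, a proprotein convertase, had 33.9 ± 20.6 and 12.4 ± 2.99 CPM (-1.42, SE 0.482), and Bmp1, the C-propeptide protease, had 40.1 ± 2.24 and 32.9 ± 7.53 CPM (-0.28, SE 0.291). All 6 tested receptor and uptake genes had a positive log2 fold change. Mrc2, an endocytic collagen receptor, had 1, 0 and 10 reads in WT against 38, 27 and 19 in knockout libraries, and Ddr1, a collagen-activated kinase, had 281 ± 72.2 and 394 ± 30.1 CPM (0.49, SE 0.273). Of 6 tested collagen-binding matrix genes 5 had a positive log2 fold change, among them Hspg2, the basement membrane proteoglycan perlecan, with 9, 0 and 25 reads in WT against 68, 56 and 73 in knockout libraries, and Fn1, fibronectin, with 18.8 ± 9.85 and 40.1 ± 19.7 CPM (1.15, SE 0.504). Their edgeR adjusted p lay between 0.239 and 0.652.

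How many of the collagen genes and enzymes passed depended on the test and on the WT libraries. DESeq2 called 2 of the 24 (Loxl2 and Col4a6), all higher, where it called 0.928% of all genes higher and 1.97% lower. The edgeR exact test called 3 (those and Col9a1), where it called 1.31% of all genes higher and 1.86% lower, and limma voom called 0. Col4a6 and Col9a1 reached the filter in knockout libraries alone and so had to differ. Their calls therefore carry no weight beside these shares. The authors' deposited table holds 3 at an adjusted p under 0.05 (Loxl2, P4ha3 and Col4a6), all higher, beside 1.13% of its genes higher and 1.81% lower. Here too P4ha3 and Col4a6 had few WT reads, so this count is a description only. Without WT replicate 3, the quasi-likelihood test called Loxl2 and Plod2 of 26 tested, where 5.01% of all genes were called higher and 7.97% lower. Without both WT replicates 1 and 2 it called Loxl2, P4ha1 and P4ha2 of 26, where 0.748% were called higher. That fit sets WT replicate 3 alone against the knockout and assumes that it varies as the knockout libraries do. Of the 24 tested genes, Col9a3, Loxl3, Col4a1 and Col18a1 have another gene within the last 500 bases of their annotated 3′ end on the opposite strand, and without a stated strand setting their reads cannot be told apart from that neighbour's.

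**Figure D4:**
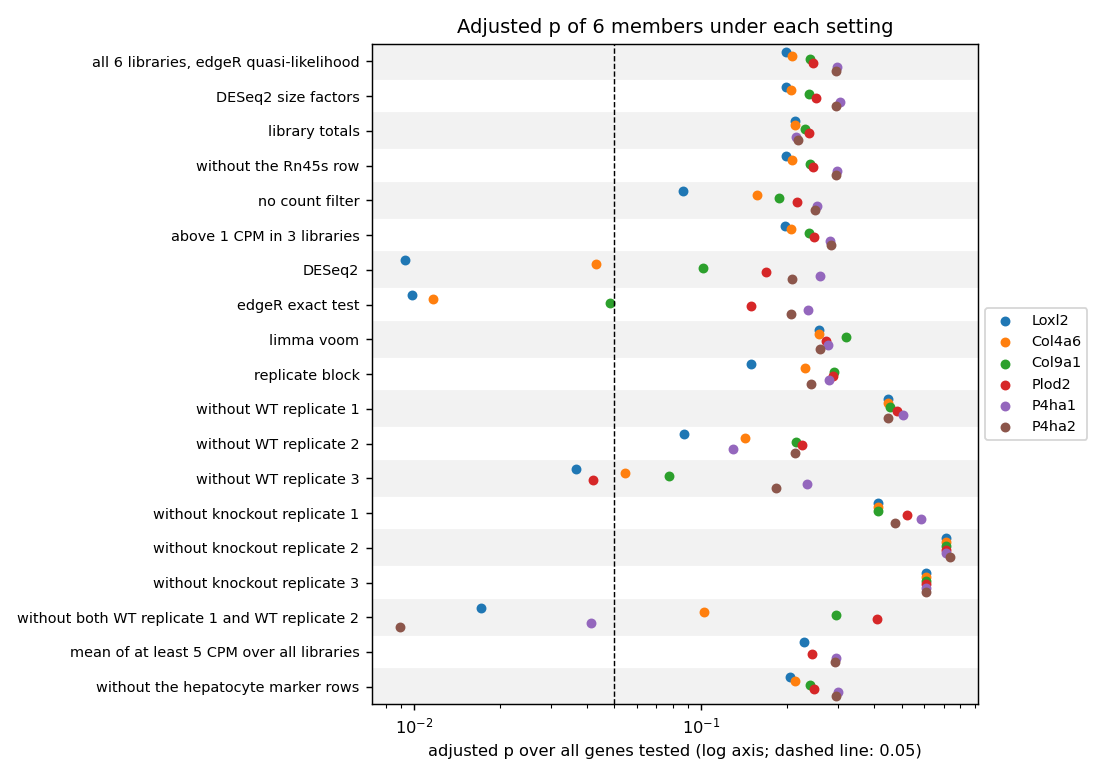
Adjusted p over all genes (horizontal log axis, dashed line at 0.05) of 6 members under the reported test and each alternative setting (rows). Points left of the line occur for DESeq2, the exact test, the fit without WT replicate 3 and the fit without both WT replicates 1 and 2, and Loxl2 is left of the line in all 4.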

How the data were processed

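The authors deposited whole-number read counts per gene symbol for all 6 libraries. Per the submitters' processing notes FastQC, HISAT2, HTSeq, edgeR and mm10 were used, with versions, annotation and strandedness not given in the sources used here. That file also holds, per the file headers, the authors' normalized values (scores rounded to whole numbers, not used), their fold ratio, log2 fold change and p-values, used only where named as theirs. Library input had an integrity number above 7, per the labels' protocols. Tags do not scale with transcript length.

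The fit used edgeR 4.0.16 under R 4.3.3: default filter (minimum 10, total 15), trimmed mean of M values, robust quasi-likelihood F test of knockout against WT, Benjamini-Hochberg adjustment over 11317 genes. The standard error is the log2 fold change divided by the square root of F. Alternatives used DESeq2 1.42.0, limma 3.58.1 (voom), other filters, scalings and left-out libraries; the test was tested on simulated data. Each library was compared with each other and no pair agreed within sampling noise. Coordinates are from GENCODE M21 (GRCm38, which mm10 names) and promoters from RefSeq GRCm38.p6.

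Genes, lists and tests were chosen with earlier results of these data known. Named with statistics were the 10 members with the smallest p, the 5 with the highest mean CPM, the highest of each family, 2 genes per pathway list with the smallest p, and P4ha3, singled out after its values were seen.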

Additional observations from a re-analysis of the deposited data

How the results depend on the processing

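With all libraries 1 gene passed over all genes. None passed with the size factors of DESeq2, library totals, the Rn45s row left out, limma voom or a mean of at least 5 CPM (0 each), 3 passed with no count filter, 328 by DESeq2, 359 by the exact test, 142 without both WT replicates 1 and 2, and 0 to 1526 with single libraries left out (1526 without WT replicate 3). Of the collagen genes and enzymes, 0 passed by the reported test, 2 by DESeq2, 3 by the exact test, 3 without both WT replicates 1 and 2, and 0 to 2 with single libraries left out. Pathway genes passing went from 0 to 1 without both WT replicates and 0 to 5 with single libraries left out. The members' median was 1.26 with library totals, where the median of all genes shifted to 0.43, and 0.52 with no count filter, where 29 of 48 were higher. With single libraries left out it was 0.61 to 0.89. The cause of these differences was not tested.

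The replicate number as a block gave 2 genes over all and 0 members. Deviations of libraries with the same replicate number in their titles correlated at -0.0025, 0.067 and 0.188. Of 6 libraries, 3 correlated best with their own number. The library names number the knockout from 2 rather than 1. By those names WT replicates 2 and 3 match knockout replicates 1 and 2, which correlated at 0.087 and -0.056. No fit was blocked by the library names, and the numbers were not taken to pair the samples.

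Of 286 comparisons of named members with an alternative, 268 kept direction and side of the threshold, 10 passed where the reported test did not, and 8 reversed. With library totals, Plod1 was at 0.071. With WT libraries left out, singly or together, or single knockout libraries, Plod1 ran from -0.77 to 0.34 (0.28 when WT replicates 1 and 2 were both out), Col18a1 from -1.55 to 1.10 (0.40 when only WT replicate 2 was out) and Col26a1 from -1.76 to 0.064, the upper end with WT replicates 1 and 2 both out. Col11a1 was at -0.076 when WT replicate 3 was out and at -0.10 when knockout replicate 2 was out. The filter of 5 CPM and the fit without hepatocyte rows were chosen after seeing the data, and the latter leaves the members' own counts as they were. WT replicate 2, the shallowest library, limits what low genes can show.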

Other observations

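Some collagen genes below the count filter had their WT reads in a single library. Col3a1, the fibroblast collagen of type III, had 10 reads in WT replicate 1 and 0 in each other library. Col15a1, a basement membrane multiplexin, had 6 reads there, 0 in the other WT libraries and 0, 0 and 1 in the knockout. Lox had 8 reads in WT replicate 1 and 0 in WT replicates 2 and 3. Col4a3 had 11 of its 13 WT reads in WT replicate 2, and Col20a1 had 8 reads there against 2 and 1 in the other WT libraries and 3, 8 and 7 in the knockout.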
